A study of Caenorhabditis elegans with 2 samples.

Results

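The astacin metalloprotease genes of Caenorhabditis elegans were described here by the BLMP-1 binding sites that lie upstream of them. They were taken as the protein-coding genes named nas- plus a number in the Ensembl annotation of the WBcel235 genome, together with hch-1, which gave 38 of 19973 nuclear protein-coding genes. The gene dpy-31, also an astacin, was left out. Whole hermaphrodite larvae of the L2 stage were used for chromatin immunoprecipitation of BLMP-1 followed by sequencing (ChIP-seq). The strain, OP109, carries the mutation unc-119(ed3) on chromosome III and the transgene wgIs109, which expresses BLMP-1 with a GFP-FLAG tag at its C-terminus. There was 1 group of 2 biological replicates, numbered 2 and 3 in the labels, and both had this genotype and stage, so no genotype, stage or treatment could be compared. Whole animals do not show in which cells BLMP-1 was bound, and the tagged protein came from a transgene in 1 line.

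Astacins are zinc-dependent endopeptidases, most of them secreted and made as inactive precursors whose prodomain is cut off. In worms they are known for work outside the cell: hch-1 helps to break down the eggshell at hatching, nas-36 and nas-37 are needed to shed the old cuticle at the molt, and nas-6 and nas-7 act in shaping the grinder, the cuticle-lined crushing organ of the pharynx. nas-39 resembles tolloid and BMP-1, the astacins that cut procollagens and growth factor inhibitors in other animals. BLMP-1 is the worm counterpart of the mammalian zinc finger factor PRDM1 and acts in the epidermis and in developmental timing.

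The annotation was compared with the family's defining mark first. The longest annotated protein of each gene held the zinc-binding motif HExxHxxGxxH in 37 of 38 genes, the exception being nas-21, and the longer astacin signature HExxHxxGxxHExxRxDR in 22. Protein lengths ran from 240 amino acids in nas-18 to 928 in nas-39, with a median of 438. Identity was taken over all columns of a local alignment, gaps included. To the closest other family protein it was lowest for nas-12, at 29.3%, and had a median of 40.5%. Identical proteins were found for nas-2, which the annotation holds as a pair of genes on chromosome V (WBGene00003521 and WBGene00021221). The copies are identical over all 1743 bp of the gene and all 1201 bp of the promoter window, so reads from them cannot be assigned to either copy, and the absence of a peak there is uncertain. Of the 38 genes, 14 lie on V and 9 on X, with 5 on II, 4 on IV and 3 each on I and III.

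Peak lists were deposited for each replicate, for the pooled replicates, and as a thresholded list that rests on both. The thresholded list held 3060 peaks, 3031 of them nuclear, and the relaxed lists, which hold background peaks too, held 19553 peaks for replicate 2, 25142 for replicate 3 and 30000 for the pool. Signal is the authors' own value per peak, and the labels and files used here do not state its scale. It was used to describe and rank peaks within a list, and values from different lists were set side by side by rank. Nuclear thresholded signals ran from 27.1 to 858 with a median of 44.3. No read counts were used, so the depth of each library is unknown and a gene without a summit is one where none was detected at that depth. The promoter window covered 1000 bp before and 200 bp after each transcript start of a gene, and a wider window reached 5 kb upstream.

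As a family the astacin genes carried BLMP-1 sites at about the background share. A thresholded summit lay in the promoter window of 5 of 38 astacin genes (13.2%, Wilson 95% interval 5.75 to 27.3%), against 8.85% of all nuclear protein-coding genes. Those 5 were nas-4, nas-10, nas-11, nas-13 and nas-36. Within 5 kb upstream the count was 8 of 38 (21.1%, 11.1 to 36.3%), against 18.3% of all genes, and nas-7, nas-23 and nas-25 were added. The background lies inside both intervals, so neither share differs from it beyond the counting error of 38 genes. With the 3060 strongest peaks of replicate 3 alone the promoter count was 3 (7.89%, against 8.49% of all genes), and with the stronger part of the thresholded peaks it was 1 (2.63%, against 4.38%), so it lay above or below the background depending on the peaks used. A thresholded summit within the gene was found for 1 astacin gene (2.63%), against 3.52% of all genes. The intervals cover only the counting of genes.

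The relaxed lists gave the same picture with larger numbers. A pooled relaxed summit lay in the promoter window of 16 of 38 astacin genes (42.1%, 27.9 to 57.8%), against 40.8% of all genes. Where a summit of each replicate within 100 bp was asked for as well, 7 of 38 had one (18.4%, 9.22 to 33.4%), against 17.3%. Within 5 kb upstream the pooled relaxed count was 24 of 38 (63.2%), against 62.3%. A share this close to the background is not a result about the family, and what follows concerns which genes carry sites, where, and how strong they are.

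**Figure D1:**
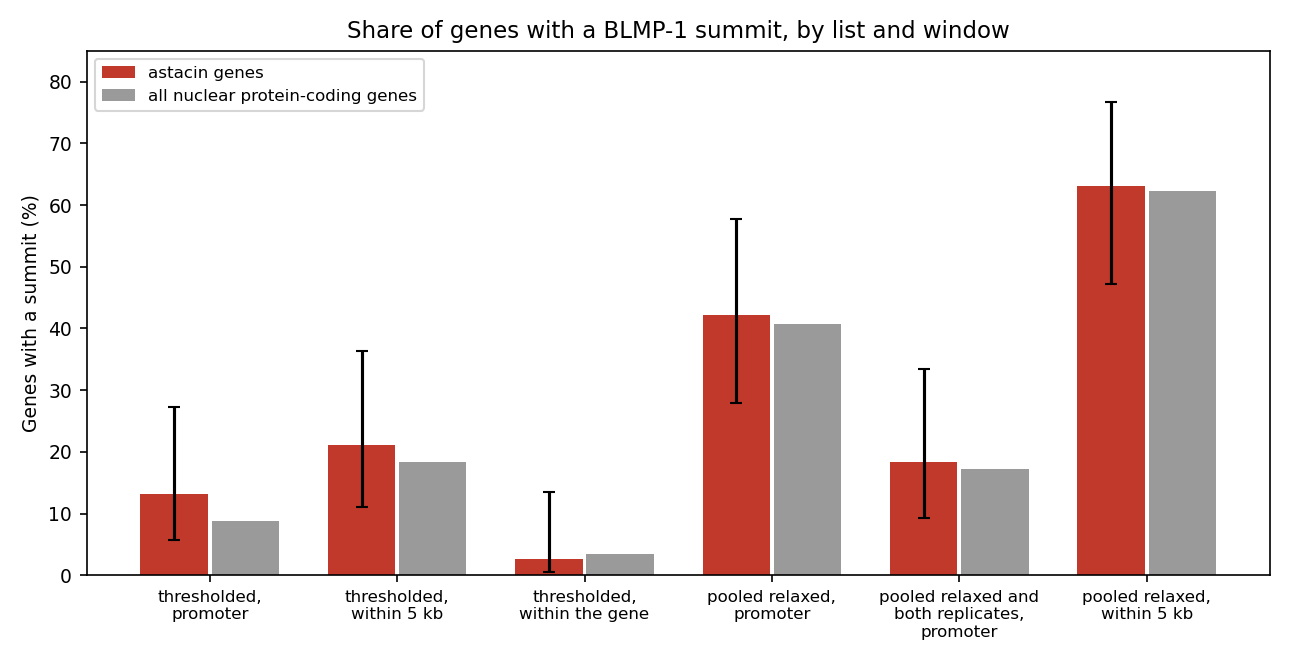
Share of genes (%) with a BLMP-1 summit for the 38 astacin genes (left bar of each pair, with 95% Wilson interval) and for all 19973 nuclear protein-coding genes (right bar), by peak list and window. The background bar lies inside the astacin interval in each of the 6 pairs, for example 13.2% against 8.85% for thresholded promoter summits.

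The strongest astacin site lay upstream of nas-7, a gene of the grinder (WBGene00003526, chromosome II, 7400545 to 7402725, minus strand). Its signal was 343 in the pooled list, 129 in replicate 2 and 207 in replicate 3. It ranked 18 among the nuclear peaks of the pooled list, 21 in replicate 2 and 15 in replicate 3, so both replicates placed it near the top. The peak (chromosome II, 7405321 to 7405640, summit 7405478) was the strongest on its chromosome. Its summit lay 2753 bp upstream of nas-7 in DNA between genes, outside the promoter window. The gap upstream of nas-7 is 5766 bp long and ends at the divergent gene srd-55, whose start is 3014 bp from the same summit, so the site is almost midway and distance does not assign it to either gene.

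A further thresholded site lay nearer to nas-7, with its summit 1520 bp upstream at 7404245. Its signal was 91.5 in the pooled list (rank 387), 33.3 in replicate 2 (rank 533) and 59.1 in replicate 3 (rank 336). The summits of these 2 sites are 1233 bp apart, and the 2 replicates order them the same way. Across the genome, 1898 genes had a thresholded summit between the promoter window and 5 kb upstream but none in the window, and for 6 of them, nas-7 included, the strongest such signal was at least that of nas-7. These are counts of genes, so a single peak can count for several of them. The stronger nas-7 summit, for example, also lies 3014 bp upstream of srd-55. Among the astacin genes, nas-7 and nas-4 each had 2 thresholded summits within 5 kb, and 812 genes in all had 2 or more (4.07%).

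The bases around both nas-7 summits are shown, 50 to each side, because they carry the strongest and the third strongest of the astacin sites counted here, dpy-31 left out. They are read 5′ to 3′ on the strand of nas-7 from the RefSeq WBcel235 genome, the build of the ce11 lists, at chrII:7405428-7405528 for the stronger site and chrII:7404195-7404295 for the other. The words searched were AGTGAAAG and AGCGAAAG, the core that PRDM1 binds in mammals, on either strand. Neither window holds the exact core, and capitals mark its 8-base matches with 1 mismatch, of which the stronger site has 2 and the other 1. A match is a description of letters and not a mapped contact.
nas-7 stronger site: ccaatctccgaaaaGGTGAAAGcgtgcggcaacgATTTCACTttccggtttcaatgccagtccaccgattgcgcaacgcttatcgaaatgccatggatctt
nas-7 nearer site: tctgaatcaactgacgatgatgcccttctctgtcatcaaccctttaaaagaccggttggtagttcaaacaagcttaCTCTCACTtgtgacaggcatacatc

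Closer to its start, nas-7 had little signal. Its promoter window held 2 pooled relaxed summits with signals of 6.97 and 6.44, close to the median of 6.31 over the pooled relaxed list, and neither had a summit of both replicates within 100 bp. nas-6, the other gene of the grinder (WBGene00003525, chromosome IV, 17486842 to 17490779, minus strand), had no summit in any of the lists. Its protein is identical to that of nas-7 at 36.7% of the alignment columns, gaps included. The gene lies 3050 bp from the end of its chromosome, so its upstream window is shorter than that of the other 37, and none of it held a peak.

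**Figure D2:**
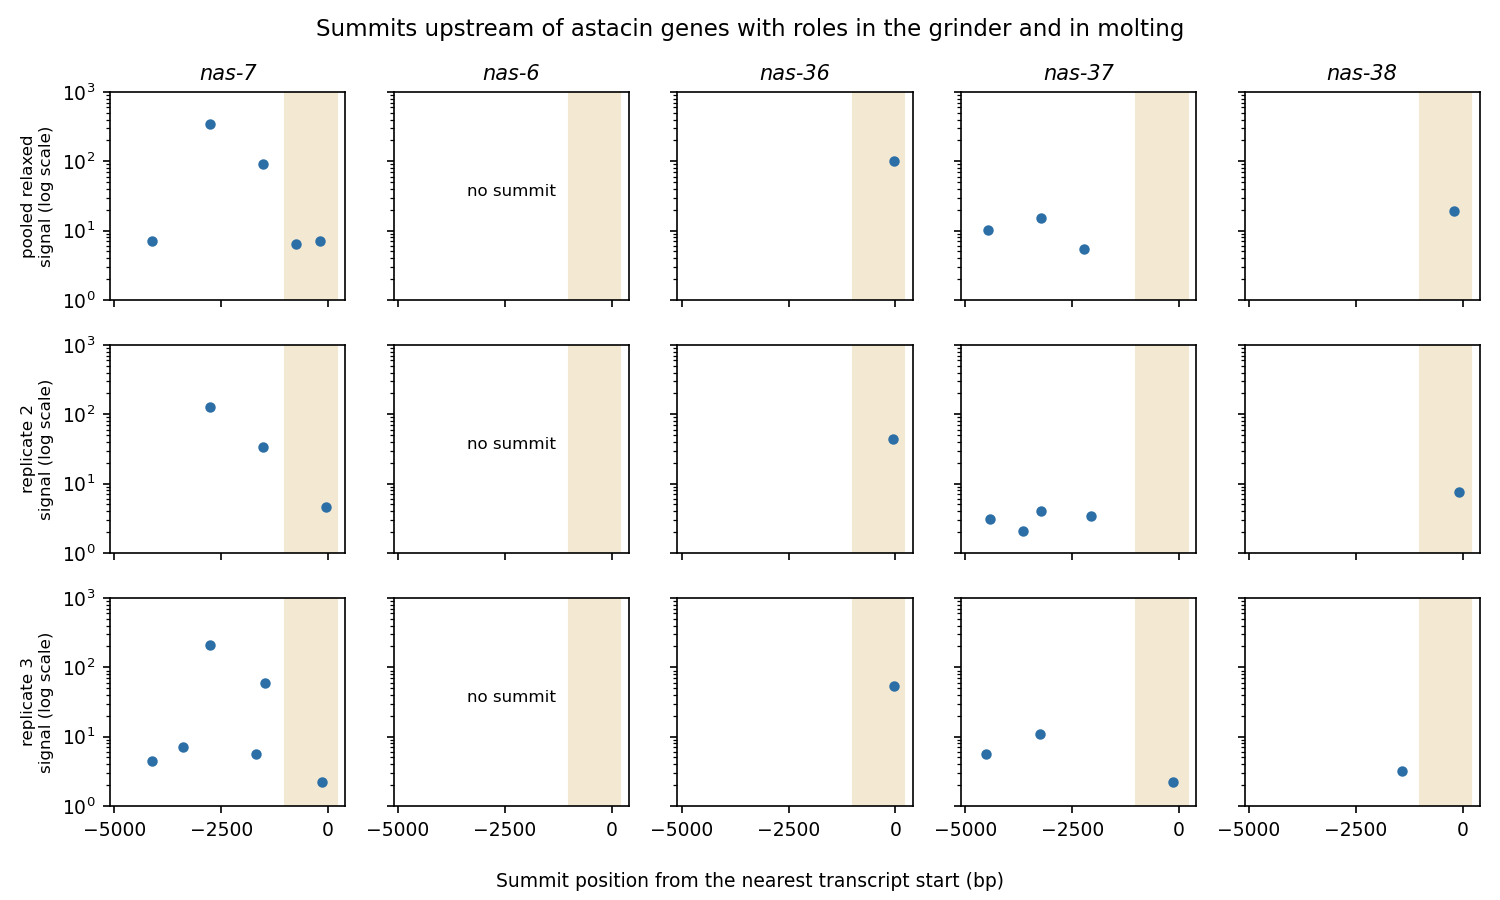
Signal (authors' value, log axis with the same range in all panels) of every summit within 5 kb upstream to 200 bp downstream of nas-7, nas-6, nas-36, nas-37 and nas-38, by distance from the nearest transcript start (bp). Pooled, replicate 2 and replicate 3 lists run from top to bottom, and heights are to be compared within a list only. The shaded band is the promoter window: nas-7 carries its high values upstream of it (343 and 91.5 in the pooled list), nas-36 has its value of 100.1 inside it, and nas-6 has no summit in any list.

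Among the molting genes, nas-36 had the strongest promoter site of the 38 genes (WBGene00003552, chromosome I, 7527224 to 7531715, plus strand), below the 323 of dpy-31, which was left out. The summit at 7527188 lay 36 bp upstream of the start, in the 507 bp between nas-36 and goa-1, which encodes the alpha subunit of a heterotrimeric G protein. The signal was 100.1 in the pooled list (rank 313), 44.0 in replicate 2 (rank 291) and 53.7 in replicate 3 (rank 410). It was the only one of the 5 promoter sites above the median thresholded signal of 44.3. No other summit lay within 5 kb upstream of nas-36 in any of the lists, so the site stands alone.

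The close functional partner of nas-36 did not carry a like site. nas-37 had no thresholded summit within 5 kb upstream and no pooled relaxed summit in its promoter window. Its highest pooled relaxed signal was 15.2 at 3221 bp upstream, where replicate 2 had 4.04 and replicate 3 had 10.9 within 100 bp. The proteins of nas-36 and nas-37 are identical at 30.9% of their alignment columns, gaps included. nas-38, which is known from molting and from the quiescence that goes with it, had a pooled relaxed summit of 19.1 at 202 bp upstream (rank 4669), below the thresholded list. Replicate 2 had a summit of 7.51 at 78 bp upstream of nas-38 and replicate 3 one of 3.24 at 1427 bp, so the replicates did not place it at the same position. All 3 of these molting genes therefore differ in the lists' summits upstream of them.

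The hatching gene hch-1 and the tolloid-like gene nas-39 had weak summits only. hch-1 (chromosome X, 14696411 to 14699977, minus strand) had pooled relaxed signals of 5.52 at 11 bp and 9.52 at 528 bp upstream. Replicate 3 had 4.68 and 3.34 near those positions, and replicate 2 had no summit within 5 kb upstream. nas-39 had a pooled relaxed signal of 4.75 at 58 bp upstream, with 2.31 in replicate 2 and no summit within 5 kb in replicate 3. Neither gene thus had a promoter summit shared by the replicates. nas-9 had no promoter summit in any list, and its highest pooled relaxed signal within 5 kb was 8.10.

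The other 4 promoter sites were weak for thresholded peaks, at 27.3 to 39.3. The summit of nas-13 (WBGene00003532, chromosome X, 15425099 to 15428253, minus strand) had a signal of 39.3 (rank 1809), with 12.2 in replicate 2 (rank 2750) and 20.5 in replicate 3 (rank 2300). It lay 116 bp downstream of the start, in an untranslated part of nas-13 itself. It was also the only thresholded summit inside an astacin gene. nas-11 had a summit of 29.8 (rank 2681) at 664 bp upstream on chromosome X (summit 6712913), inside the untranslated end of acr-3, which encodes a nicotinic acetylcholine receptor subunit. Replicate 2 had 15.1 there (rank 2052) and replicate 3 had 7.79 (rank 7551), so replicate 3 alone would not rank it among its strongest 3060 peaks.

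The promoter site of nas-4 (WBGene00003523, chromosome III, 6411578 to 6415656, minus strand) had unlike ranks in the replicates. Its summit, 42 bp upstream, had a signal of 27.9 (rank 2926) in the pooled list. Replicate 2 had 25.5 within 100 bp (rank 904), while replicate 3 had 8.80 (rank 6561) and its stronger summit lay 230 bp downstream of a start, at 25.3. The pooled relaxed list has a summit at 205 bp downstream as well, also with a signal of 25.3 (rank 3291), just below the thresholded list. A further thresholded site of nas-4, 3286 bp upstream in an intron of the lipase gene atgl-1, had 30.9 in the pooled list (rank 2542), 6.45 in replicate 2 (rank 6000) and 24.0 in replicate 3 (rank 1809). It lay 515 bp downstream of the start of atgl-1, nearer to that gene than to nas-4. The replicates thus rank both nas-4 sites in opposite order.

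The nas-10 site rests on replicate 2 in position. Its summit (chromosome X, 10963900), 397 bp upstream of nas-10 (WBGene00003529), had 27.3 in the pooled list (rank 3003), close to the lowest thresholded signal of 27.1. Replicate 2 had 13.2 there (rank 2461), and replicate 3 had no summit within 100 bp, its nearest strong one being 10.4 at 520 bp upstream. The bases within 50 bp of this summit hold a tRNA gene (WBGene00014436) and the noncoding RNA gene K09C8.11. Of all 10 astacin sites this was the only one within 50 bp of a tRNA gene (1 of 10), against 25 of 3031 nuclear thresholded summits (0.825%). Whether the tRNA gene has a part in this peak was not tested.

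The sites of nas-23 and nas-25 lay outside the promoter window and nearer to other genes. nas-23 had a summit of 57.4 (rank 983) at 2416 bp upstream on chromosome II (summit 7496115), with 24.7 in replicate 2 (rank 950) and 31.1 in replicate 3 (rank 1217). That summit is in the untranslated part of R10H1.1, whose start also lies between it and nas-23, and it is 132 bp upstream of spi-1, in whose promoter window it falls. nas-25 had a summit of 45.9 (rank 1433) at 3205 bp upstream on chromosome II (summit 8822864), with 12.6 in replicate 2 (rank 2610) and 30 in replicate 3 (rank 1294). It lies between genes, 1674 bp from the start of F46C5.1. Both replicates hold both sites, and both sites are nearer to the start of another gene than to that of the astacin gene.

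**Figure D3:**
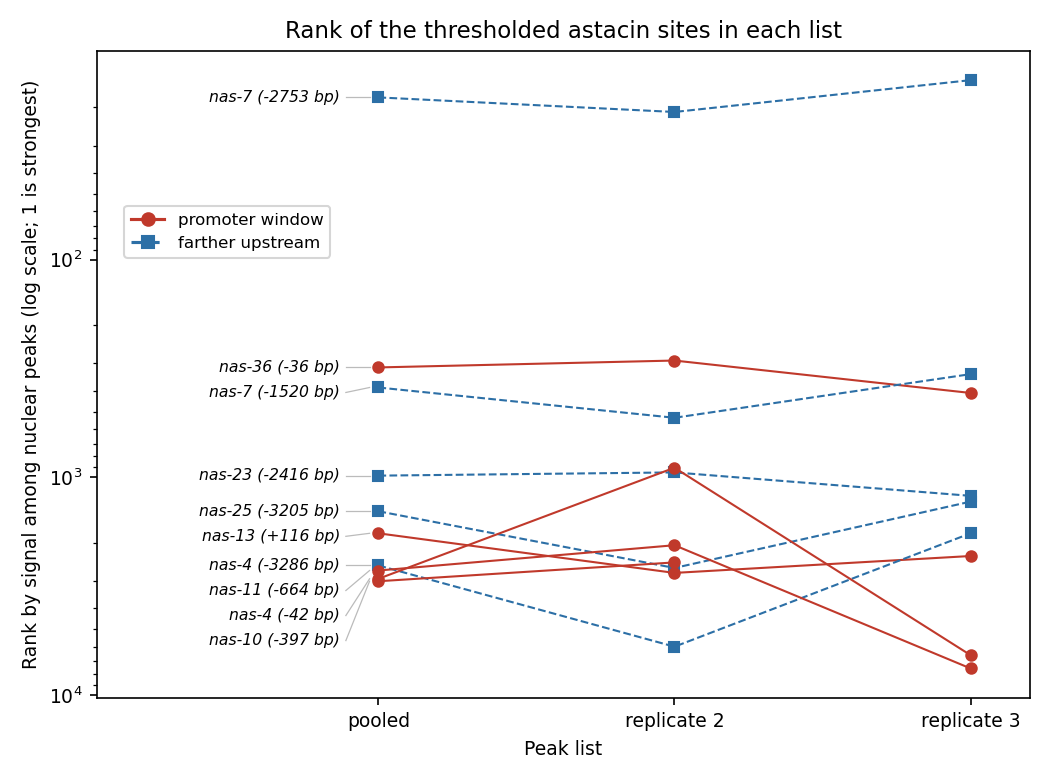
Rank by signal (log axis, 1 is strongest) of the 10 thresholded astacin sites among the nuclear peaks of the pooled list, replicate 2 and replicate 3, with solid lines for promoter sites and dashed lines for sites farther upstream. The nas-7 site at 2753 bp keeps ranks of 18, 21 and 15, whereas the nas-4 promoter site stands at 2926, 904 and 6561, and the nas-10 site has no point in replicate 3 because no summit lay within 100 bp.

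Set side by side, the 10 sites had a median signal of 42.6, against 44.3 for all nuclear thresholded peaks. Of the 5 promoter sites 4 were below that median, and of the 5 farther sites 4 were above it. The same split over all thresholded summits is not given here, so it describes these sites only. Of the 10 sites 3 were closer to the start of another gene, all of them among the farther ones. All 10 had a summit of replicate 2 within 100 bp and 9 had one of replicate 3, so 9 of 10 were found in both, against 92.6% of all nuclear thresholded summits. The median GC content within 50 bp of the summits was 40.1% for the astacin sites and 43.6% for all nuclear thresholded summits.

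The exact core AGTGAAAG or AGCGAAAG lay within 50 bp of the summit at 3 of the 10 sites, those of nas-13, nas-23 and nas-36 (30%, Wilson 95% interval 10.8 to 60.3%). Among all nuclear thresholded summits the share was 215 of 3031 (7.09%, 6.23 to 8.06%). In windows 1000 bp to each side of the sites it was 0 of 10, against 0.594% and 0.957% around all summits. Within 25 bp of the summit the share was 1 of 10 sites (10%), against 3.96% of all summits. With 10 sites the interval is wide, and no test was made. With 1 mismatch allowed the core was found at 6 of 10 sites, against 41.9% of all summits. The words AGACGCAG and GAGAGAGA, which an earlier scan of these data ranked high, were at 0 of 10 astacin sites, against 8.05% and 9.11% of all summits, and a count of 0 in 10 allows a share of up to 27.8% by the Wilson interval.

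Core-bearing stretches are shown for nas-13 and nas-23. The exact word lies near the nas-36 summit as well, its centre 23 bp away, and that stretch is not shown. Each stretch shown is 30 bases, read 5′ to 3′ on the strand of the astacin gene from the RefSeq WBcel235 genome, with the core in capitals. The nas-13 stretch is chrX:15428081-15428110, where the word reads on the opposite strand and its centre is 42 bp from the summit. The nas-23 stretch is chrII:7496095-7496124, with the centre 6 bp from the summit.
nas-13 site: cgtcacatacaCTTTCACTtatgccatcac
nas-23 site: tgaccaatgaaAGCGAAAGttgacatgatt

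For comparison, the promoter sites of nas-4 and nas-10 hold no exact core. Shown are 92 bases of the nas-4 site at chrIII:6415657-6415748, ending where the transcribed sequence begins, and the bases within 50 bp of the nas-10 summit at chrX:10963850-10963950, which span the tRNA gene. Capitals in the nas-4 stretch mark a match of the core with 1 mismatch, and the nas-10 stretch has none.
nas-4 promoter site: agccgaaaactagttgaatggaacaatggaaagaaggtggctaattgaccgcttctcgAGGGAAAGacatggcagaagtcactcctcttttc
nas-10 promoter site: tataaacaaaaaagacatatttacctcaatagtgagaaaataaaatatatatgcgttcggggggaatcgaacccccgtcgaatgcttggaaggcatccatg

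Across whole promoter windows the exact core was found in 4 of 38 astacin genes (10.5%), against 7.85% of all nuclear protein-coding genes. These were nas-13, nas-23, nas-27 and nas-36. nas-27 had the core but no thresholded summit within 5 kb upstream, and in nas-23 the core of the promoter window is apart from the thresholded site, which lies outside that window. The astacin promoter windows thus hold the word at about the background share. The word and a thresholded summit came together in the promoter window at nas-13 and nas-36, while nas-23 and nas-27 had the word with pooled relaxed summits of at most 13.3 and 4.94.

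Below the thresholded list, 11 more astacin genes had a pooled relaxed summit in the promoter window, with a median highest signal of 9.52. Both replicates held one of these summits within 100 bp for 3 of the 11, namely nas-33 (16.2 at 118 bp upstream), nas-23 (13.3 at 803 bp upstream) and nas-32 (7.26 at 61 bp upstream). The nas-23 summit lay in an untranslated part of R10H1.1, 47 bp downstream of the start of that gene and in its promoter window. That start lies between the summit and nas-23. At the nas-33 summit replicate 2 had 6.13 (rank 6391 of 19523 nuclear peaks) and replicate 3 had 6.75 (rank 8845 of 25112). At that of nas-23 replicate 2 had 7.89 (rank 4749) and replicate 3 had 2.38 (rank 22712). At that of nas-32 replicate 2 had 2.21 (rank 18184) and replicate 3 had 4.02 (rank 15168). The lowest signal was 2.00 in either replicate list, so the values of 2.38 and 2.21 are near the floor. For the other 8, hch-1, nas-3, nas-7, nas-27, nas-29, nas-30, nas-38 and nas-39, the replicates did not both hold the summit. The highest of these 8 were nas-38 at 19.1, nas-3 at 16.6 and nas-29 at 14.8.

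The threshold of the list fell between near values for this family. The weakest thresholded astacin sites were those of nas-10 at 27.3 and nas-4 at 27.9. Just below it came the nas-4 summit at 25.3, then nas-5 with 22.3 at 2479 bp upstream, nas-32 with 22.2 at 4494 bp upstream and nas-30 with 21 at 2666 bp upstream. The summit counted here for nas-32 lay past the start of fmo-5, 16 bp upstream of that gene and in its promoter window. The nas-5 summit was nearer to the start of nhr-69, at 2206 bp, and replicate 3 had no summit within 100 bp of it.

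**Figure D4:**
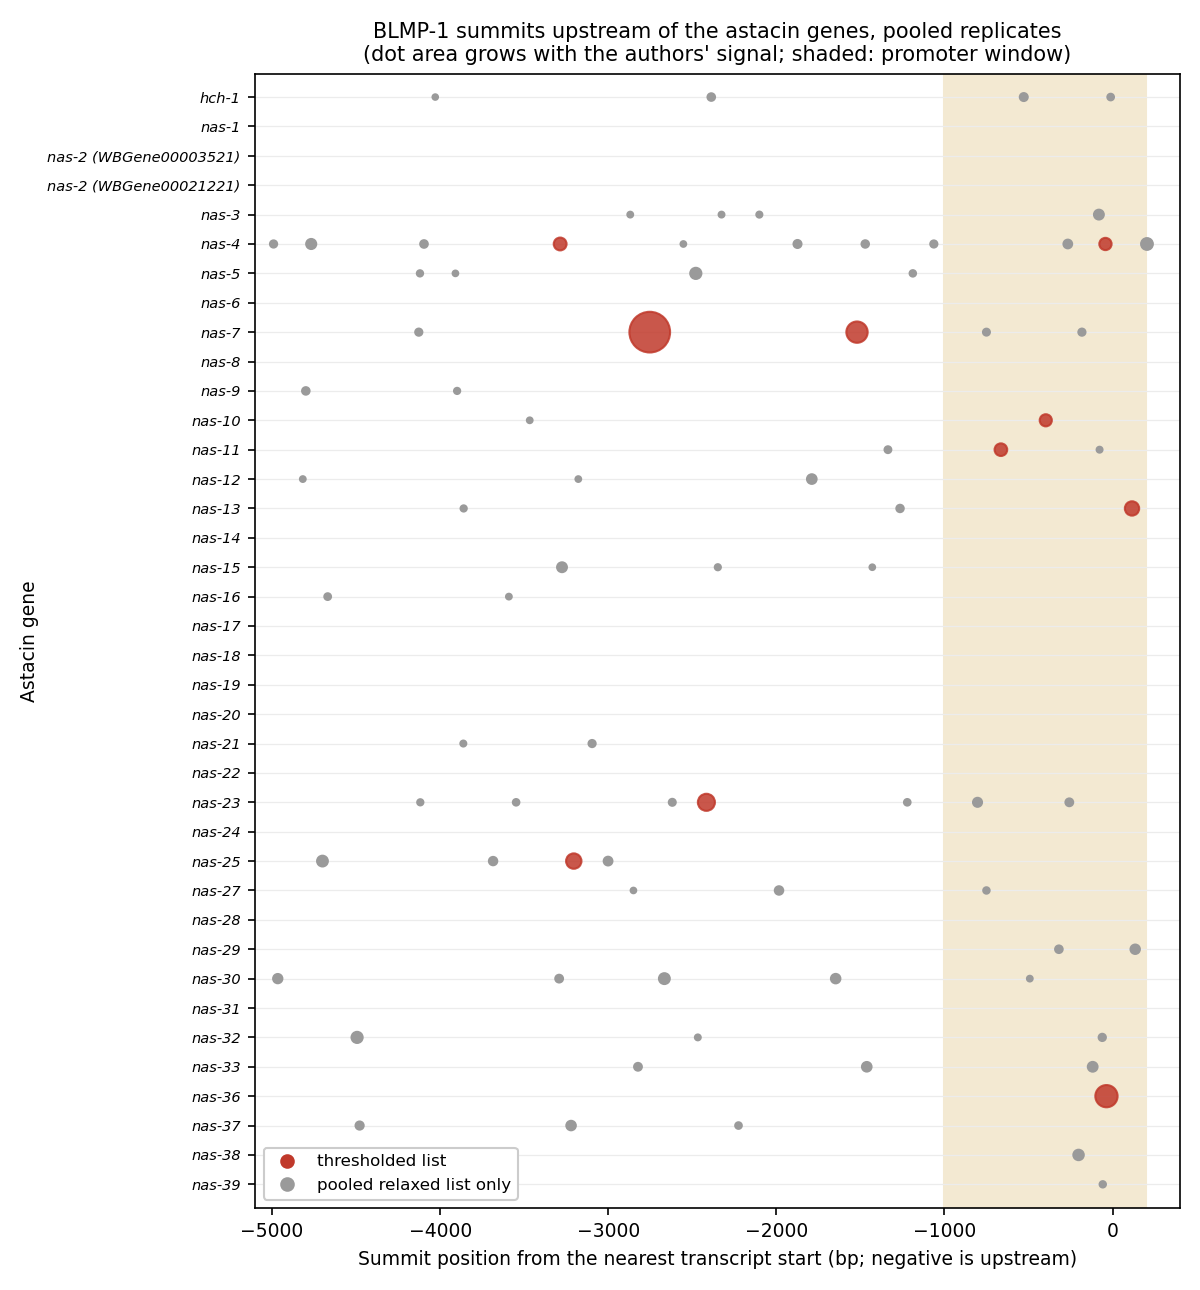
Position of pooled BLMP-1 summits from the nearest transcript start (bp, negative is upstream) for each of the 38 astacin genes, from 5 kb upstream to 200 bp downstream, with dot area growing with signal and the promoter window shaded. Red marks the 10 thresholded sites and grey the summits of the pooled relaxed list below them; 14 rows are empty, and the largest dots are those of nas-7 (343) and nas-36 (100.1).

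Of the 38 genes, 22 had no pooled relaxed summit in the promoter window and 14 had none within 5 kb. In 10 genes no list, either replicate included, had a summit within 5 kb: both copies of nas-2, nas-6, nas-14, nas-17, nas-18, nas-20, nas-24, nas-28 and nas-31. This is 26.3% of the family, against 24% of all nuclear protein-coding genes, and so near the background. Of these 10, 7 lie on chromosome V, which holds 14 of the family and where 32.3% of all genes had no summit in any list. All 14 astacin genes on V lacked a thresholded summit within 5 kb upstream, where 13.2% of all genes on V had one, and 6.29% had one in the promoter window. Chromosome X held 3 of the 5 astacin promoter sites, in 9 astacin genes there, and 10.7% of all genes on X had a promoter summit.

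The run of genes nas-16 to nas-22 on chromosome V forms 2 groups, nas-16 to nas-19 (11392320 to 11402710) and nas-20 to nas-22 (11470925 to 11478007), with 68.2 kb between them. No list had a summit inside either group, over 10.4 kb and 7.08 kb. Chromosome V has 2.35 thresholded and 24.1 pooled relaxed summits per 100 kb, so stretches this short would hold few of them. The DNA between the groups, which is not part of the astacin genes, had 0 thresholded and 7 pooled relaxed summits, with signals up to 7.0. How well reads map in these groups of related genes was not tested.

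Closest relatives were compared for their sites. Of the 8 genes with a thresholded summit within 5 kb, the closest family protein belonged to a gene with such a summit in 2 cases, nas-4 with nas-13 (40.7% identity) and nas-11 with nas-10 (48.6%). In the other 6 it did not, as for nas-10 and nas-9 (52.2%), nas-7 and nas-8 (41.8%) and nas-36 and nas-37. With 2 of 8, the closest relatives had a summit about as often as the family at large (21.1%) and all genes (18.3%). The genes are longer than most, with a median of 2902 bp against 2027 bp for all genes, and have longer gaps upstream, with a median of 1614 bp against 936 bp. The median gap was 1210 bp for the 8 genes with a summit within 5 kb and 1614 bp for 29 others, nas-6 having no gene upstream. The 8 gaps ran from 115 bp at nas-4 to 5766 bp at nas-7, and their part in these counts was not tested.

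Other genes that act with or beside astacins were counted in the same windows. Cuticle assembly and molting partners, a list of 26 genes chosen with earlier results of these data known, had a thresholded promoter summit in 8 (30.8%) and one within 5 kb in 16 (61.5%), against 8.85% and 18.3% of all genes. They include the astacin gene dpy-31, whose product trims the collagen SQT-3 (323), the collagen gene dpy-10 (120), the prolyl hydroxylase gene dpy-18 (112), the sterol-sensing domain gene che-14 (87.9) and the protein disulfide isomerase gene pdi-2 (67.0). The collagen gene sqt-3 had 39.7, the peroxidase gene mlt-7 had 39.2 and the Kunitz-type inhibitor gene mlt-11 had 33.6. Further members had a summit only upstream of the promoter window, among them the collagen genes bli-1 (130) and rol-6 (97.7) and the apical matrix genes noah-2 (122) and noah-1 (114). No test of the list was made.

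Other secreted or membrane metalloproteases, in a list that also holds the inhibitor genes timp-1 and cri-2, stood near the background, with 5 of 41 genes at the promoter (12.2%) and 8 of 41 within 5 kb (19.5%). The promoter summits were those of adt-3 (65.8) and adt-2 (40.7), which encode ADAMTS-type proteases, timp-1 (56.3), an inhibitor of metalloproteases, zmp-2 (31), a matrix metalloprotease, and adm-2 (29.9), an ADAM. All 23 neprilysin-type nep genes lacked a promoter summit, which 8.85% of all genes had. Within 5 kb 2 of the 23 had one (8.70%), against 18.3% of all genes. Aspartyl, cathepsin and trypsin-type protease genes had one in 6 of 40 (15%) and one within 5 kb in 9 of 40 (22.5%), the highest being try-4 (105). cpr-5 and cpr-8 share the same summit of 33.3, so these 2 count a single site.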

How the data were processed

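Per the labels, chromatin was fragmented by sonication, and the antibody field names blmp-1. A control library exists and is not analysed here. The labels and files used name no aligner, peak caller or reproducibility cutoff. Signal per peak and −log10 q values were deposited by the authors. The q values were 3.98 for all thresholded peaks, so ranks rest on signal. Summits came from the deposited offset, counted from 1, and 3 that fell outside their peak were moved to its end. Lists on ce11 were used without mitochondrial peaks. The thresholded list equals the 3060 strongest pooled peaks. Genes came from Ensembl release 115, and proteins were translated from the RefSeq WBcel235 genome.

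The genes and gene lists were chosen with earlier results of these data known. Genes named are those with a thresholded summit within 5 kb upstream, those with a promoter summit in the pooled list and both replicates, and those with textbook roles. Summits of different lists were matched within 100 bp. With 1 group no test was made, and shares carry Wilson 95% intervals. One list entry, adt-4, matched no gene. Alternatives were other windows, nearest starts, the stronger peaks, and each replicate alone. The tools were Python 3.11.15, NumPy 2.4.6, pandas 2.3.3, SciPy 1.17.1, Biopython 1.88 and, for plots, matplotlib 3.10.9. The counting steps were tested on simulated data.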

Additional observations from a re-analysis of the deposited data

How the results depend on the processing

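With the stronger part of the thresholded peaks, the count of astacin genes with a promoter summit was 1 (nas-36), and that within 5 kb was 4 (nas-7, nas-23, nas-25 and nas-36); the background shares were 4.38% and 9.78%. With the 3060 strongest peaks of a replicate alone in place of the thresholded list, the promoter count ran from 3 without replicate 2 to 5 without replicate 3, with nas-10 and nas-11 lost without replicate 2; the shares were 7.89% without replicate 2, against 8.49% of all genes, and 13.2% without replicate 3, against 8.59%. Without replicate 2, nas-4 was kept through the replicate 3 summit 230 bp downstream of a start (25.3, rank 1695). Its thresholded promoter site ranked 6561 in replicate 3 and so was not among those 3060 peaks. The share of sites with the core was 10% within 25 bp of the summit, against 3.96% of all summits. The other 28 recomputed values stayed within 1.5 times a reported count, within the interval of a reported share, or at the reported signal. No signal was recomputed for nas-11 at 500 bp upstream, where its window held no thresholded summit. Among the 28 was the promoter count of 4 at 500 bp upstream (10.5%, against 6.87% of all genes), which lost nas-11. At 2000 bp it was 6 (15.8%, against 12.1%), with nas-7 added. Within 5 kb, 6 genes remained when a summit counted only for its nearest start (15.8%, against 9.67%), which lost nas-23 and nas-25. At 10 kb there were 12 (31.6%, against 26.6%). No paired analysis was possible because there was 1 group only. Unknown depth and the number of 38 genes and 10 sites limit these shares.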

Other observations

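Farther upstream, between 5 and 10 kb, thresholded summits lay before 4 more astacin genes, and in each case other gene starts came between. hch-1 had summits of 58.1 at 8395 bp and 54.1 at 9766 bp upstream, past the starts of F40E10.5 and tmem-184. nas-37 had one of 51.9 at 9626 bp, past cysl-1, nas-15 one of 97.3 at 9425 bp, past 3 starts, and nas-32 one of 40.1 at 5582 bp, past fmo-5. nas-25 had 5 thresholded summits within 10 kb, with signals of 29.5 to 66.0, and nas-4 had 4, the strongest of 81.7 lying beyond the start of atgl-1. Of the nas-25 summits only that of 45.9 had no other gene start between it and nas-25. The rest lay beyond the start of F46C5.1. With this window 12 of 38 astacin genes had a summit (31.6%), against 26.6% of all nuclear protein-coding genes.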
